A study of Mus musculus with 6 samples.

Results

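The genes described here are 10 inhibitors of WNT signaling that act outside the cell or at its surface, measured in mouse esophageal and stomach organoids: *Dkk1*, *Dkk2*, *Dkk3*, *Dkk4*, *Sfrp1*, *Sfrp2*, *Sfrp5*, *Frzb*, *Wif1* and *Kremen1*. They were taken by gene name from the non-control spots of the arrays, where they carry 11 of 55681 distinct probes and 10 of 34298 gene names. *Kremen1* has 2 probes and each other gene has 1. *Kremen1* encodes a transmembrane receptor for dickkopf proteins, so it is not itself secreted and belongs to the group as their partner.

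The data are 6 single-color Agilent mouse expression arrays, 3 of esophageal organoids and 3 of stomach organoids, made from both tissues of mice 1, 2 and 4 at passage 0. Organoids are epithelial cultures grown in Matrigel, here squamous ones from the esophagus and columnar ones from glands of the stomach corpus. All were harvested on day 8 of culture except the stomach organoids of mouse 4, on day 7. The labels call every culture a control and give no medium, genotype, strain, sex or age. The methods describe wild-type C57BL/6 females and Cre reporter lines without stating which gave these cultures. Per the methods, mouse stomach medium contained WNT3A and R-spondin1, which activate WNT signaling, and the standard esophageal medium did not. Gastrin was listed for the stomach medium alone and forskolin for the esophageal medium alone. The study also grew mouse esophageal organoids with WNT3A and R-spondin1, so the medium of these arrays is taken from the standard protocol. Tissue and medium cannot be told apart in any comparison below.

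WNT ligands signal through frizzled receptors and the co-receptors LRP5 and LRP6, which stabilize β-catenin and switch on TCF/LEF target genes. Secreted antagonists act before that step. DKK1, DKK2 and DKK4 bind LRP5 and LRP6, and KREMEN proteins take part in removing the bound co-receptor from the surface, whereas the frizzled-related proteins SFRP1, SFRP2, SFRP5 and FRZB and the factor WIF1 bind WNT ligands themselves. DKK3 is a divergent dickkopf protein whose action on WNT signaling is less settled. In the gut, many of these antagonists are made by stromal cells under the epithelium, which epithelial organoid cultures largely lack.

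Each value rests on hybridization to a probe of 60 bases, so the probe sequences of the 3 genes with a signal are shown, 30 bases each, 5′ to 3′. Capitals mark the longest run that also occurs, on either strand, in a probe under another gene name, which for the 11 probes was 13 to 16 bases long.
Dkk3 probe: agtaaagAGATGTAAACATTTAggaaaaca
Sfrp1 probe: taaaatagTCATTCCGGAGAGTcagggaaa
Kremen1 downstream probe: caacaaggCTTTATTTGTAAATatgctctt
Kremen1 upstream probe: gtcaggctATGCCTGCTTCTGTgggaacaa
The files place these probes on mm9 at chr7:119259556-119259615 on the minus strand (*Dkk3*, NM_015814), chr8:24559438-24559497 on the plus strand (*Sfrp1*, NM_013834), and chr11:5091749-5091808 and chr11:5110027-5110086 on the minus strand (*Kremen1*, NM_032396 for both probes). The *Kremen1* probes lie 18218 bases apart. No mm9 annotation was used here, so their exon or UTR was not assigned.

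*Sfrp1*, *Dkk3* and *Kremen1* were higher in esophageal than in stomach organoids, by 4.47-fold, 3.71-fold and 2.31-fold, and no antagonist was called higher in stomach organoids. The fold of *Sfrp1* is the least certain in size, as 1 of 3 stomach arrays was well above background and its log2 difference ran from 1.48 to 3.62 over the alternatives. The other 7 genes were not well above background on any of the 6 arrays, in either tissue. A probe was called when its adjusted p was under 0.05 (limma, Benjamini-Hochberg over all 55681 probes) and its difference at least 1.5-fold. Of the 11 probes, 3 were called higher in esophagus and 0 in stomach, where 5.84% and 6.15% of all probes were called. By gene, 3 of 10 were called, against 7.73% of gene names with a probe higher in esophagus and 8.23% with one higher in stomach. Among probes well above background on each array of at least 1 tissue, which include 3 of the 11, the shares were 12% and 12.8%. With unadjusted p-values the same rule called 9.28% of all probes higher in esophagus and 8.85% higher in stomach, and still 3 of the 11. All 3 esophagus values lay above all 3 stomach values for 3 of the 11 probes and for 15.2% of probes measured on every array.

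**Figure D1:**
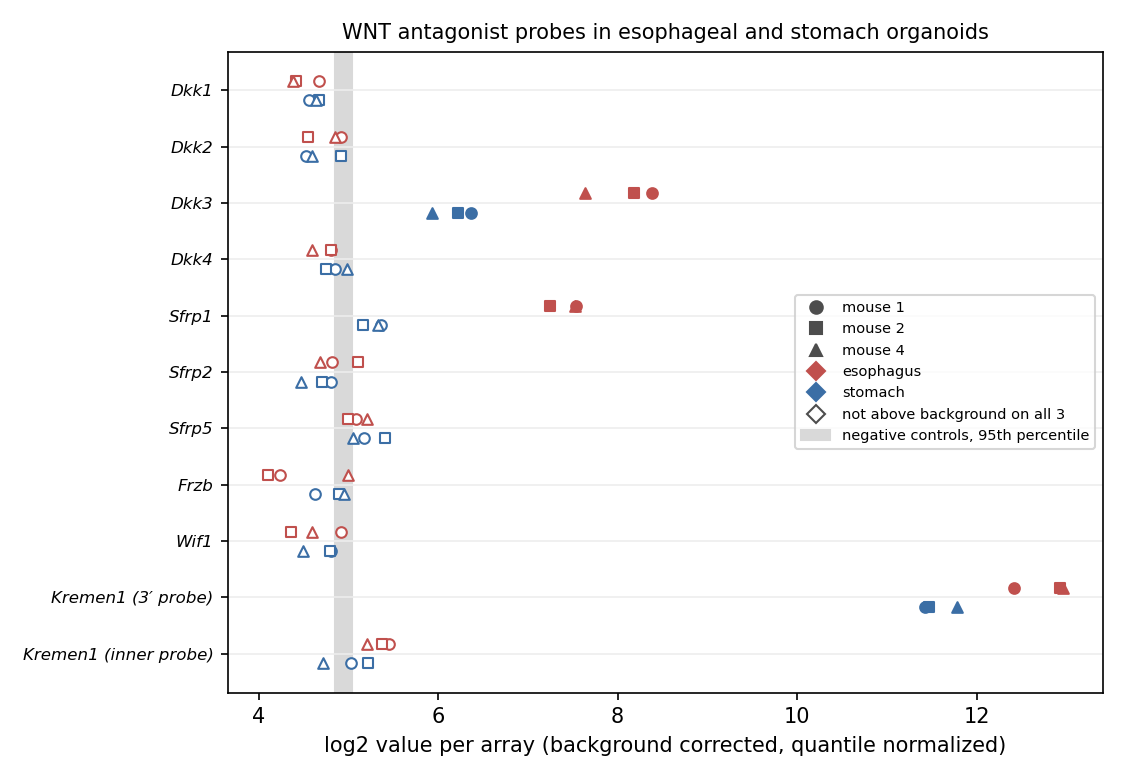
Log2 value (background corrected, quantile normalized) of each of the 11 probes on the 6 arrays, with red for esophagus, blue for stomach and the symbol for the mouse. Filled symbols mark a probe well above background on all 3 arrays of that tissue, the gray band spans the arrays' 95th percentiles of negative-control spots (4.85 to 5.04), and only *Dkk3*, *Sfrp1* and the downstream *Kremen1* probe separate the tissues.

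The dickkopf family was represented by *Dkk3*. Its log2 values were 8.38, 8.18 and 7.64 in esophageal organoids of mice 1, 2 and 4 and 6.36, 6.22 and 5.93 in their stomach organoids. The lowest esophagus value was above the highest stomach value, and in both tissues mouse 1 was highest and mouse 4 lowest. *Dkk3* thus averaged 8.07 ± 0.38 (SD, n = 3) in esophagus and 6.17 ± 0.22 (SD, n = 3) in stomach, a log2 difference of 1.89 (standard error 0.23, limma adjusted p = 0.00117). Within mice 1, 2 and 4 the log2 difference was 2.01, 1.96 and 1.70. *Dkk3* was measured in both tissues, as all 6 arrays rose well above background. Its raw mean signal was 329.9, 309.8 and 199.2 in esophagus and 89.2, 55.1 and 72.8 in stomach, over a local background of 18 to 23.

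*Dkk1*, *Dkk2* and *Dkk4*, the dickkopf genes whose products bind the LRP co-receptors, gave no measured level in either tissue. The *Dkk1* probe read 4.67, 4.42 and 4.38 on the log2 scale in esophagus and 4.56, 4.67 and 4.64 in stomach. *Dkk2* read 4.92, 4.55 and 4.85 in esophagus and 4.53, 4.92 and 4.59 in stomach. *Dkk4* read 4.80, 4.80 and 4.59 in esophagus and 4.85, 4.75 and 4.98 in stomach. The tissues overlapped for each of them and no value was well above background. No fold is given for these genes, since both tissues have only a bound.

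*Dkk1* is itself a well-known target of β-catenin, so its promoter is shown beside these readings. It is the RefSeq sequence (GRCm38.p6) from 250 bases before the start site, chr19:30549497-30549746 on the minus strand, with the TCF/LEF core words in capitals.
Dkk1 promoter: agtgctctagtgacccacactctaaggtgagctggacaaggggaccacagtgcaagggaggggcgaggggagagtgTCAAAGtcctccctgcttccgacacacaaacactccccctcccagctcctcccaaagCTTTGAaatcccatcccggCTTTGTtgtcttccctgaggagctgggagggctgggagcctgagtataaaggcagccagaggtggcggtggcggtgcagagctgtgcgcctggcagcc
The word CTTTGA, or TCAAAG on the other strand, occurred 174 and 117 bases before the start, and CTTTGT 98 bases before it. In windows of 300 bases (250 before to 50 after the start), CTTTGA occurs in 16% and CTTTGT in 18.7% of the 32851 RefSeq promoters, counting both strands. A promoter entry was found for 6 of the 10 genes. *Dkk2* held CTTTGT at 1 position and *Frzb* held CTTTGA at 1, and neither word was in the windows of *Sfrp2*, *Sfrp5* and *Wif1*. These are matches of letters, not binding sites.

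Of the 4 frizzled-related genes, *Sfrp1* alone was measured. Its log2 values were 7.54, 7.25 and 7.53 in esophageal organoids of mice 1, 2 and 4 and 5.36, 5.16 and 5.33 in stomach organoids. The tissues were far apart relative to their spread, and mouse 2 was lowest in both. The means were 7.44 ± 0.17 (SD, n = 3) and 5.28 ± 0.11 (SD, n = 3), a log2 difference of 2.16 (standard error 0.15, limma adjusted p = 6.94e-05). Within mice 1, 2 and 4 it was 2.19, 2.09 and 2.20. The stomach level was at the edge of detection: 1 of 3 stomach arrays, that of mouse 1, was well above background, against 3 of 3 in esophagus. Raw mean signals were 185.5, 167.5 and 192.6 in esophagus and 40.3, 30.1 and 44.0 in stomach. The log2 difference was 1.48 with a normexp offset of 50 and 3.62 with the software's subtracted signal scaled to the 75th percentile, which changes background correction and normalization together. The call held in both (limma adjusted p from 4.08e-05 to 0.000966 over the alternatives).

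*Sfrp2*, *Sfrp5* and *Frzb* were not well above background on any array. *Sfrp2* read 4.82, 5.11 and 4.68 on the log2 scale in esophagus and 4.80, 4.71 and 4.47 in stomach, with overlapping tissues. *Frzb*, also known as *Sfrp3*, read 4.24, 4.10 and 4.99 in esophagus and 4.63, 4.89 and 4.95 in stomach. Mouse 4 gave the highest *Frzb* value in both tissues. *Sfrp5* read 5.08, 4.99 and 5.21 in esophagus and 5.17, 5.41 and 5.05 in stomach. It lay above the 95th percentile of the 308 negative-control spots on all 6 arrays while never being marked well above background. *Sfrp5* was called higher in stomach under 1 alternative, which replaced both the background correction and the normalization by the software's subtracted signal with 75th percentile scaling (log2 difference -1.36, limma adjusted p = 0.0326). Under that alternative the median log2 difference of all probes was 0.19, against 0.02.

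*Wif1*, which encodes a secreted WNT-binding protein, read 4.92, 4.36 and 4.59 in esophagus and 4.80, 4.79 and 4.49 in stomach. It overlapped between the tissues and was at no array above the 95th percentile of negative controls. Over the 8 probes that were not well above background on any array, log2 values ran from 4.10 to 5.45. The negative controls had medians of 4.56 to 4.67 and 95th percentiles of 4.85 to 5.04 on the 6 arrays, and 15 of the 48 values exceeded the percentile of their own array. Beyond the 6 values of *Sfrp5*, 5 of these were of the upstream *Kremen1* probe. *Dkk2*, *Dkk4*, *Sfrp2* and *Frzb* had 1 each, and *Dkk1* and *Wif1* had 0.

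*Kremen1* had the smallest difference of the 3 called genes. Its downstream probe read 12.42, 12.93 and 12.96 on the log2 scale in esophageal organoids of mice 1, 2 and 4 and 11.43, 11.47 and 11.78 in stomach organoids. The tissues did not overlap, and all 6 arrays were well above background. The means were 12.77 ± 0.30 (SD, n = 3) and 11.56 ± 0.19 (SD, n = 3), a log2 difference of 1.21 (standard error 0.20, limma adjusted p = 0.00611). Within mice 1, 2 and 4 it was 0.99, 1.45 and 1.17. The upstream probe read 5.45, 5.37 and 5.21 in esophagus and 5.03, 5.22 and 4.72 in stomach, reached well above background on no array, and was not called (limma adjusted p = 0.28). It lay above the 95th percentile of negative controls on 3 of 3 esophagus and 2 of 3 stomach arrays, and read 0.41, 0.15 and 0.49 higher in esophagus within mice 1, 2 and 4. Averaging both probes lowered the *Kremen1* difference to 0.78, still called (limma adjusted p = 0.00596). Over all alternatives the adjusted p of *Kremen1* ran from 0.00302 to 0.038 (limma). The call of *Kremen1* therefore rests on its downstream probe.

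**Figure D2:**
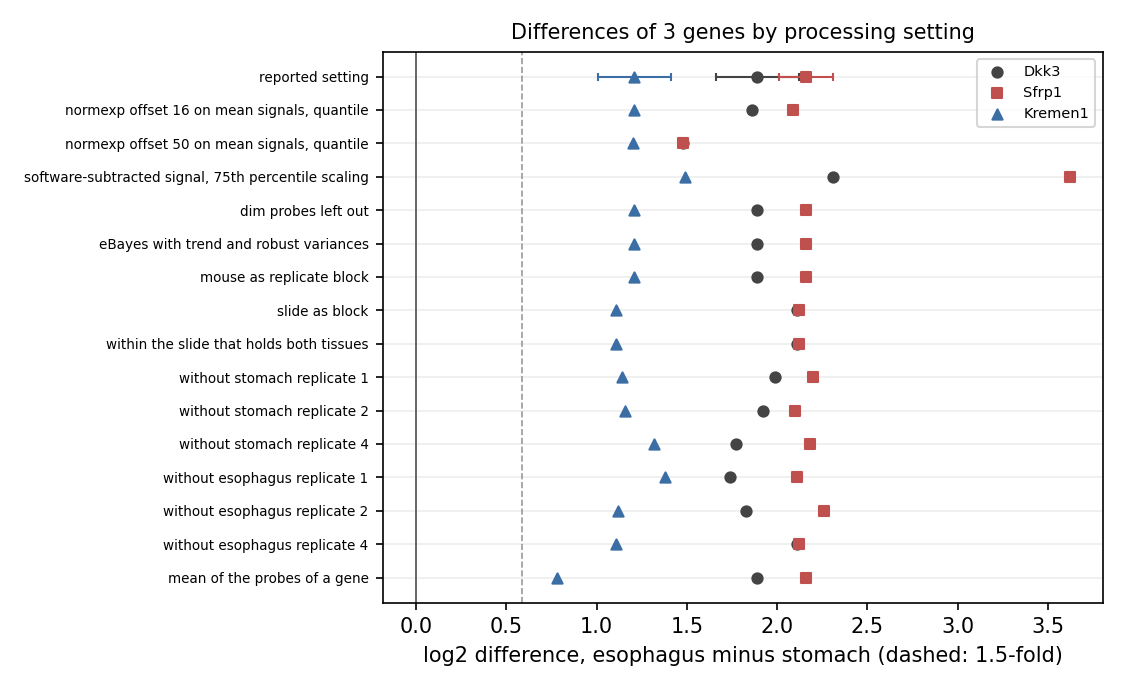
Log2 difference, esophagus minus stomach, of *Dkk3*, *Sfrp1* and *Kremen1* (its downstream probe, or the mean of both probes in the last row) under the reported setting (bars, standard error) and 15 alternatives, with the dashed line at 1.5-fold. All differences lie to the right of the line, the highest being *Sfrp1* at 3.62 with the software-subtracted signal and 75th percentile scaling.

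The paralogue *Kremen2*, also a dickkopf receptor, was opposite in direction. Its log2 values were 5.25, 5.90 and 5.92 in esophagus and 8.43, 8.48 and 8.41 in stomach, so that the stomach arrays were nearly equal and all higher. The log2 difference was -2.75 (standard error 0.21, limma adjusted p = 8.9e-05), and 2 of 3 esophagus arrays were well above background. The co-receptors that dickkopf proteins bind were chosen for mention after their values were seen. *Lrp6* was called higher in stomach by its brighter probe (log2 difference -0.64, limma adjusted p = 0.0295) and not by the other (-0.51, limma adjusted p = 0.122). Its call was lost when any array but that of esophagus mouse 2 was left out (limma adjusted p = 0.0709 and 0.0789 without esophagus replicates 1 and 4, and 0.126, 0.0794 and 0.0568 without stomach replicates 1, 2 and 4). *Lrp5* had a difference of -0.70 that did not pass (limma adjusted p = 0.152).

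*Kremen2* belongs to a list of 12 further extracellular or surface inhibitors, of which 3 were called higher in esophagus and 1 in stomach, and 5 were not well above background on any array. The shares over all gene names were 7.73% and 8.23%. The median log2 difference of the list, by the brightest probe of each gene, was -0.04, against 0.02 over all probes. *Sostdc1*, a secreted BMP and WNT antagonist, read 9.02, 7.16 and 6.76 in esophagus and was not well above background in stomach. It was at least 8.09-fold higher in esophagus (limma adjusted p = 0.00702), or at least 5.03-fold without esophagus replicate 1, and its other probe gave at least 6.43-fold. The bound sets the esophagus mean against the higher of the stomach value and the lowest signal well above background on that array. *Tpbg*, a surface glycoprotein that dampens WNT responses, read 8.18, 8.61 and 8.37 in esophagus and 6.60, 6.63 and 6.28 in stomach, a log2 difference of 1.88 (limma adjusted p = 0.000332). *Apcdd1*, a membrane inhibitor that binds WNT and LRP5, was at least 2.52-fold higher in esophagus (limma adjusted p = 0.00106).

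Among 13 membrane and cytoplasmic brakes of the pathway, 4 were called higher in stomach and 1 in esophagus, against 8.23% and 7.73% of all gene names, with a median log2 difference of -0.17. *Shisa2*, which retains frizzled receptors inside the cell, was at least 8.45-fold higher in stomach (limma adjusted p = 4.98e-06). *Axin2*, a scaffold of the β-catenin destruction complex and a WNT target, read 7.65, 7.21 and 8.31 in stomach and 5.04, 5.33 and 5.13 in esophagus, where 1 of 3 arrays was well above background. *Rnf43*, which removes frizzled receptors, and *Nkd2* differed by -1.86 and -1.63 on the log2 scale. The gene called higher in esophagus was *Ctnnbip1*, which blocks the binding of β-catenin to TCF (log2 difference 1.05, limma adjusted p = 0.0152), named here after its value was seen. It was not called with stomach replicate 1 or 2 left out, when the count in that direction was 0.

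WNT ligands, whose signaling these antagonists oppose, were listed together with R-spondins. Of these 23 genes, 7 were called higher in esophagus and 0 in stomach, against 7.73% and 8.23% of all gene names, with a median log2 difference of 0.14. The brightest probe of *Wnt4* averaged 13.89 ± 0.21 (SD, n = 3) in esophagus and 6.96 ± 0.18 (SD, n = 3) in stomach. *Wnt10a* was higher by 5.07 and *Wnt9a*, well above background on 2 of 3 stomach arrays, by 2.87 on the log2 scale, and *Wnt6* was at least 14-fold higher in esophagus. Of 16 receptors, 5 were called higher in esophagus and 4 in stomach, against the same 7.73% and 8.23%, with a median of 0.47. *Fzd10*, well above background on 1 of 3 stomach arrays, was higher in esophagus by 4.81 and *Fzd2* by 2.37, whereas *Fzd4* was higher in stomach (log2 difference -2.28) and *Ror2* at least 29.9-fold higher there. The other, dimmer *Fzd2* probe was not called (log2 difference 0.31, limma adjusted p = 0.515). Without stomach replicate 4 the number of receptors higher in esophagus was 8.

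Among 17 target genes of the pathway, 7 were called higher in stomach and 1 in esophagus, against 8.23% and 7.73% of all gene names, with a median log2 difference of -0.82. Of these 17 genes, *Axin2*, *Rnf43*, *Nkd1* and *Znrf3* are also on the list of brakes and *Notum* on that of inhibitors, and *Axin2* and *Rnf43* count among the calls of both lists. *Sp5*, a transcription factor induced by β-catenin, was at least 72.5-fold higher in stomach and *Lgr5*, an R-spondin receptor of gastric stem cells, at least 41-fold. *Sox9* differed by -3.09 and *Axin2*, well above background on 1 of 3 esophagus arrays, by -2.56. The other, dimmer probes of *Axin2* and *Lgr5* were not called (limma adjusted p = 0.318 and 0.779). *Cd44*, a hyaluronan receptor, was the gene called higher in esophagus and was named after its values were seen. Its brightest probe was not called (log2 difference 1.12, limma adjusted p = 0.153, tissues overlapping), and the call rests on 3 dimmer probes with differences of 1.42 to 1.67. It was not called with stomach replicate 1 or 2 left out, when the count in that direction was 0, and the count was 2 under several other settings. These lists were chosen with earlier results known, and nothing particular to any list follows from its count.

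**Figure D3:**
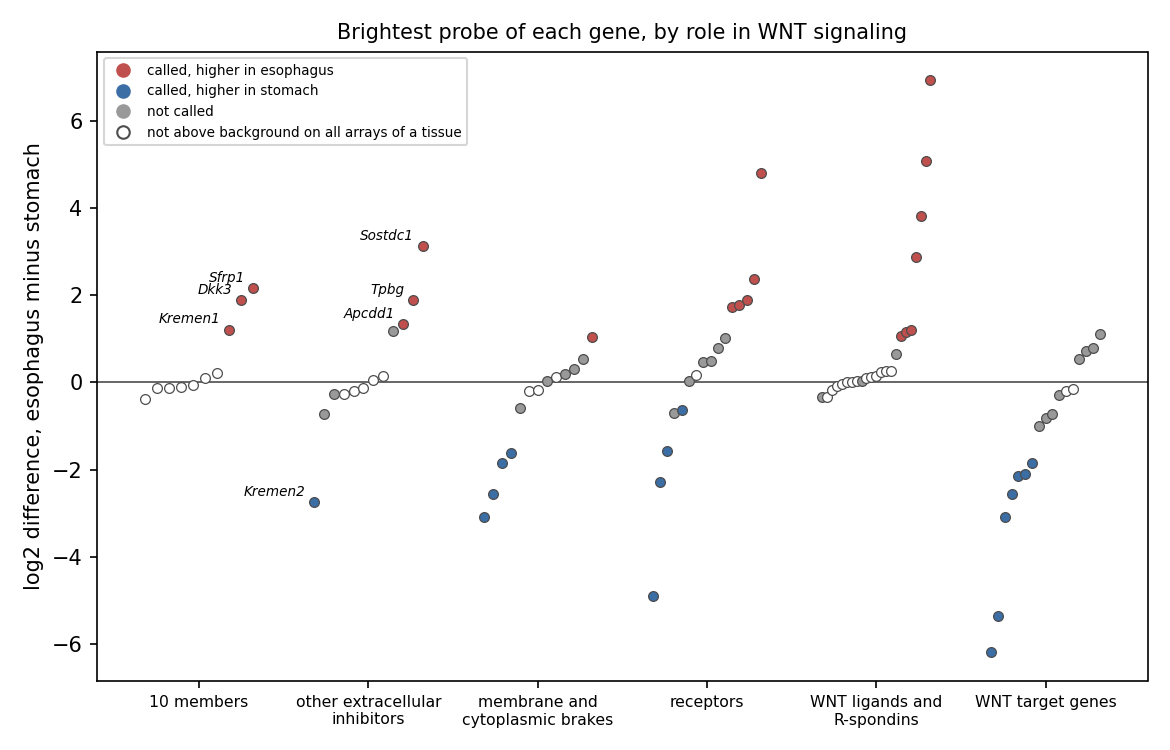
Log2 difference, esophagus minus stomach, of the brightest probe of each gene (1 point a gene), grouped by role in WNT signaling and ordered by value within a group. Of the 10 antagonists *Dkk3*, *Sfrp1* and *Kremen1* stand above 0 and the 7 open points near 0 were not above background on all arrays of either tissue, while *Kremen2* at -2.75 is the called gene below 0 among the other inhibitors.

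The profile nearest to that of *Sfrp1*, by Euclidean distance between mean-centered log2 values over the 6 arrays among 25852 probes, was that of *Scin* (0.206), followed by *Zfp362* (0.207). *Scin* encodes the actin-severing protein scinderin. *Scin* read 6.89, 6.80 and 7.07 in esophagus and 4.75, 4.52 and 4.85 in stomach, where it was not well above background. Over 6 arrays of 2 tissues, a like-sized difference between the tissues is enough to give a small distance.

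The tissue labels were borne out by epithelial markers: all 6 squamous markers had a probe called higher in esophagus and all 7 gastric columnar markers were called higher in stomach. The exception among probes was *Trp63*, with 3 probes higher in esophagus and 1 higher in stomach. As *Sfrp1* and *Dkk3* are also expressed by stromal cells, stromal markers are given beside them. Of 10 fibroblast markers, 0 were called, and *Lum*, *Pdgfra*, *Pdgfrb*, *Postn* and *Thy1* were not well above background on any array. The summed level of the 10 fibroblast markers on the linear scale was 2904 to 4607.4 in esophagus and 2377 to 3527.5 in stomach, but *Fbln1*, the fibroblast marker well above background on all 6 arrays, made up most of it. The other 9 summed to 245.1 to 284.3 in esophagus and 286.8 to 297.9 in stomach. Of 6 smooth muscle markers, 0 were called, with sums of 516.6 to 1522.8 in esophagus and 568.7 to 1858.6 in stomach, or 142.9 to 275.4 and 130.4 to 134.2 without *Tagln*. Immune markers summed to 1967.1 to 3064.4 in esophagus and 9020 to 15564.3 in stomach, or 506.7 to 962.1 and 932.1 to 1068.3 without *Itgam*, which was called higher in stomach, while *Ptprc* was on no array well above background. The call of *Itgam* rests on its brightest probe, as its other probes were not well above background on any array and were not called. Neural and Schwann cell markers summed to 6173.3 to 11587.5 in esophagus and 12287 to 35631 in stomach. *Itgam* and *Tagln* were each the brightest gene of their list. The part of such cells in the differences was not tested. In these bulk cultures, fewer cells of a type and less RNA per cell cannot be told apart.

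Between 45.5% and 47.3% of spots stood well above background in esophagus and between 46.7% and 51.1% in stomach, and 0 were saturated. Of the arrays, 5 were on 1 slide and that of esophagus mouse 4 on another. Within the slide that holds both tissues, the log2 difference was 2.11 for *Dkk3*, 2.12 for *Sfrp1* and 1.11 for *Kremen1* (limma adjusted p = 0.000514, 0.000323 and 0.0187). The labels do not say how many cultures each array pools, and the smallest p that exact permutation of 3 against 3 arrays allows for 1 gene is 0.1.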

How the data were processed

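RNA of 3 esophageal and 3 stomach organoid cultures was labeled and hybridized to single-color Agilent arrays by the authors and read by them with Agilent Feature Extraction, version 11.5.1.1. Scanner files as deposited hold each spot's mean intensity, local background intensity and flags, not normalized between arrays. The authors also deposited log2 values, which they had background corrected and then quantile normalized. The offset is not stated, and the table's 2029 empty cells were the 2029 spots marked as outliers, none of them among the 11 probes.

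These log2 values were averaged over the spots of a probe. Every probe was compared between tissues with lmFit and eBayes (R 4.3.3, limma 3.58.1), without a block, with Benjamini-Hochberg adjustment. The methods name limma and state no block. The script was tested on simulated data. The methods do not say whether p-values were adjusted, so both counts are given. Coordinates are those of the files (mm9), and RefSeq GRCm38.p6 was used for promoters alone.

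Both tissues came from the same mice, so arrays pair by mouse number. Across 25852 probes, same-mouse deviations from the tissue mean had r = 0.042, 0.023 and -0.002. The rule for named genes was all 10 genes with every probe, up to 4 called genes per list with the largest difference, and the 3 nearest profiles, 1 of which is not reported here. Genes and lists were chosen with earlier results of these data known. Alternatives were other background corrections, scaling, a filter on dim probes, variance models, mouse or slide as a block, a 2-fold threshold, unadjusted p-values, averaged probes and each array left out. The immune list (1 of 6 called, *Itgam*, higher in stomach), the neural list (1 of 5, *Elavl4*, higher in esophagus) and the endothelial list (0 of 5) complete the marker lists. The number of arrays limits the precision.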

Additional observations from a re-analysis of the deposited data

How the results depend on the processing

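*Dkk3*, *Sfrp1* and *Kremen1* kept their direction and their call under all 15 alternatives, which are 13 distinct fits since the slide block, the values within 1 slide and leaving out esophagus replicate 4 coincide, with log2 differences of 1.48 to 2.31, 1.48 to 3.62 and 0.78 to 1.49. With mouse as a replicate block they were 1.89, 2.16 and 1.21 (limma adjusted p = 0.00139, 7e-04 and 0.00948), and the paired fit changed no call among the 10 genes. The count of all probes called was 6675. It was 10096 with unadjusted p-values and 4091 to 7415 with 1 array left out, the lowest values being 4091 without stomach replicate 1 and 4152 without stomach replicate 2, where the cause was not tested. Of the 8 probes of these genes that no array showed well above background, that of *Sfrp5* was called with the software-subtracted signal and 75th percentile scaling, and no other under any setting run per probe. Signal over background limits the 7 dim genes: their levels have only an upper bound.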
